A study of Mus musculus with 18 samples.

Results

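The genes described here encode 52 drug-metabolizing enzymes of the liver outside the Cyp2b and Cyp4a groups: cytochromes P450, their electron donor, flavin monooxygenases, carboxylesterases, and the enzymes that conjugate glucuronic acid, glutathione, sulfate or acetyl groups. They were chosen by name, with earlier results of these data known. A gene counted as measured where a transcript cluster of the array carried its symbol alone, and the brightest such cluster stood for it, which gave 49 of the 52 genes among 36230 single symbols. The symbols of Cyp2a5, Cyp2c29 and Ugt1a1 stand only on clusters shared with other genes, which are described separately below. The livers came from 18 adult healthy male mice, 1 Affymetrix Mouse Transcriptome Array 1.0 per animal, after transduction with adeno-associated virus (AAV). There were 6 groups of 3 arrays, labelled HPNWT or EGFP (the green fluorescent protein control) at day 1, day 2 and day 4. Every group had received a virus, so the comparison is between viruses and not with untreated liver. Per its design text, the series set out to overexpress hepsin in the liver, and Hpn encodes this serine protease of the cell surface. The labels do not spell out HPNWT, and neither the strain, the promoter, the dose nor the event from which the days were counted is given in the sources used here.

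Drugs and other foreign compounds are cleared by the liver in successive steps. Phase I enzymes, above all the cytochromes P450 of the endoplasmic reticulum, oxidise, reduce or hydrolyse a compound, and phase II enzymes attach a polar group to it, after which transporters carry it into bile or blood. Many of these enzymes also act on steroids, bile acids and fatty acid epoxides, and many are made mainly by the hepatocytes around the central vein under the control of nuclear receptors such as CAR and PXR.

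All values below are log2 signals from robust multi-array averaging (RMA), and a difference is HPNWT minus EGFP. A gene was called where its Benjamini-Hochberg adjusted p in limma, over the 40161 clusters with a symbol, was under 0.05. Correlations between arrays lay between 0.982 and 0.998. Hpn itself read 8.25 against 8.26 on average in HPNWT and EGFP arrays, a difference of −0.01 ± 0.07 (SE, 9 arrays per label, adjusted p 0.935). A rise of Hpn under the HPNWT label was thus not detectable, and the sources used here do not say whether its probes detect the transgene, so HPNWT and EGFP stand for the labels throughout. The 5 hepatocyte marker genes averaged between 12.1 and 12.4 on every array. In bulk liver, fewer cells of a type and less RNA per cell cannot be told apart. The mean over arrays of the 95th percentile of the negative-control probe sets was 6.16, and 43 of the 49 enzymes averaged above it, the exceptions being Cyp2c39, Fmo2, Sult1b1, Sult1e1, Nat2 and Nat8. The negative-control median itself was lower in HPNWT than in EGFP arrays, most at day 2, where it lay between 2.99 and 3.09 against 3.27 and 3.55. HPNWT day 4 replicate 3 stood apart from the other arrays, with a quality weight of 0.142 from limma, and is treated below where it decides a value.

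Over the 3 days together, most of the changes in these enzymes were falls. In the comparison of 9 HPNWT with 9 EGFP arrays, 22 of the 49 enzymes (44.9%) were lower and 5 (10.2%) were higher. The same test called 7.33% of all clusters lower and 7.85% higher (15.2% in either direction). Kept to the 9049 clusters above the negative-control level, it called 20.7% lower and 19.7% higher, and of the 43 enzymes there 23 lower and 4 higher. The falls thus made up a larger share of the enzymes than of either background. Because the enzymes were chosen with earlier results of these data known, this comparison is a description and not an independent test. The share of rises was near that of all clusters and under that of the brighter ones. The median difference of the enzymes was −0.25, against 0.02 for all clusters. By class, 10 of 23 cytochromes P450 fell and 2 rose, and 5 of the 8 oxidoreductases and hydrolases fell. All 6 measured Ugt genes fell, which are 5 glucuronosyltransferases and Ugt3a1. None of the 6 glutathione transferases fell and 1 rose, while of the 6 sulfotransferases and acetyltransferases 2 rose and 1 fell.

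The called enzymes differed in how well their calls held. When the negative-control median of each array entered the fit as a covariate, 12 of the 27 calls remained. The same 12 also kept their calls under every other alternative and with any 1 of the 18 arrays left out. They were the falls of Cyp2e1, Cyp2j5, Cyp3a25, Fmo1, Ces1d, Ces1e, Ugt2b1, Ugt2b5, Ugt2b34 and Ugt2b36 and the rises of Gstt1 and Sult1a1. A further 9, the falls of Cyp1a2, Cyp2c38, Cyp2d9, Cyp2f2, Cyp3a13, Ces3a and Ces3b and the rises of Cyp2d26 and Sult1e1, held with any array left out and lost the call with the covariate. The remaining 6 (Cyp2a22, Cyp2c37, Cyp2c54, Ugt2a3, Ugt3a1 and Nat8) were lost in that fit and also with single arrays left out. Except for the low-value filter, the share of all clusters called in each alternative fit is not given here or below. Gains and losses of calls are therefore not shown to be particular to the enzymes.

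**Figure D1:**
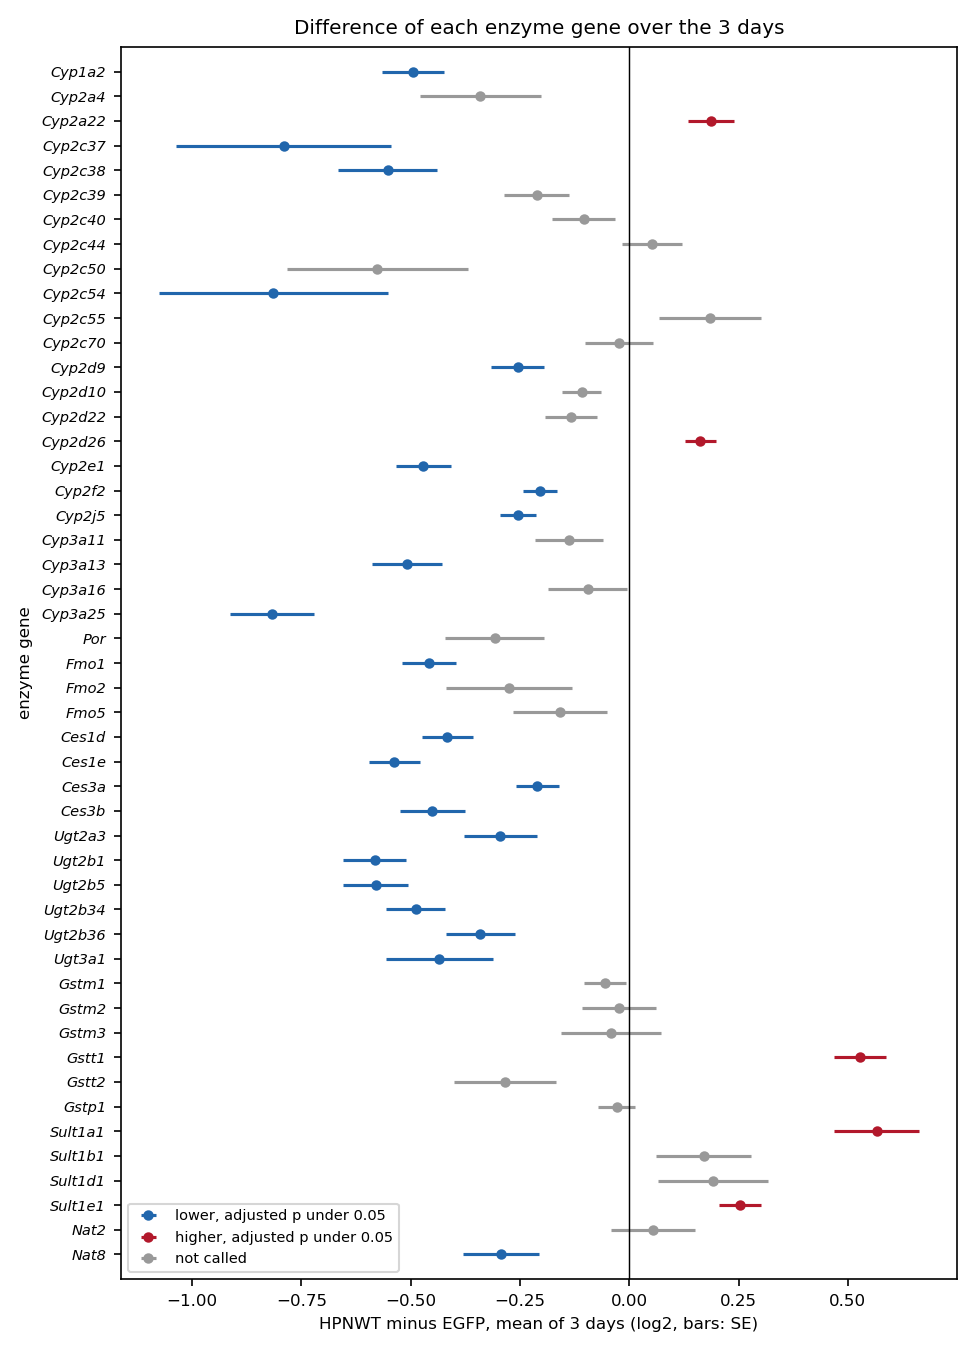
Mean difference between HPNWT and EGFP livers over the 3 days for each of the 49 enzymes (x axis, log2; bars are standard errors of the limma fit over 18 arrays), ordered by class from the cytochromes P450 at the top to the acetyltransferases at the bottom. The 6 Ugt genes all lie to the left of 0, and Gstt1 and Sult1a1 lie farthest to the right.

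Among the cytochromes P450, Cyp3a25, a CYP3A enzyme of mouse liver, had the largest fall that held under every alternative. Its signal in HPNWT against EGFP arrays was 9.54, 9.71 and 10.07 against 10.02, 10.67 and 10.64 at day 1, 9.62, 9.78 and 9.93 against 10.76, 10.62 and 10.83 at day 2, and 10.01, 9.84 and 9.60 against 10.53, 10.58 and 10.81 at day 4. The mean difference was −0.82 ± 0.10 (SE, 9 arrays per label), or 1.76-fold lower, with an adjusted p of 2.7e-05. At days 2 and 4 every HPNWT array lay under every EGFP array, and at day 1 the highest HPNWT array passed the lowest EGFP array. The other CYP3A genes measured did not move as a block. Cyp3a13, of the same subfamily, read 8.93, 9.03 and 9.21 against 9.69, 9.42 and 9.44 at day 1, 9.17, 8.55 and 9.22 against 9.46, 9.43 and 9.38 at day 2, and 8.57, 8.72 and 8.73 against 9.27, 9.43 and 9.19 at day 4. It was lower by 1.42-fold (−0.51 ± 0.08, adjusted p 0.000376), and the groups of each day did not overlap, while across days EGFP day 4 replicate 3 lay just under HPNWT day 1 replicate 3 and HPNWT day 2 replicate 3. Cyp3a11, usually the most abundant CYP3A in mouse liver and a standard readout of PXR, was not called (−0.14 ± 0.08, adjusted p 0.277), and neither was Cyp3a16 (−0.09 ± 0.09). Cyp3a16 was faint, between 5.88 and 6.61, around the negative-control level of 6.16. In the HPNWT arrays of day 1 it read 5.88, 6.36 and 6.53 where Cyp3a11 read 11.01, 11.45 and 11.64. Its probes may catch RNA of Cyp3a11, which was not tested, so the 2 may not be independent readings.

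Cyp2e1 oxidises ethanol and turns paracetamol into its toxic quinone imine. Its signal was 11.90, 11.99 and 12.19 against 12.29, 12.37 and 12.44 at day 1, 11.83, 11.81 and 11.94 against 12.32, 12.31 and 12.41 at day 2, and 11.81, 11.72 and 11.40 against 12.38, 12.04 and 12.25 at day 4, so the arrays of each day did not overlap. It was 1.39-fold lower over the 3 days (−0.47 ± 0.06, adjusted p 7.68e-05). Cyp1a2, which oxidises caffeine and arylamines and is a target of the aryl hydrocarbon receptor, read 11.36, 11.35 and 11.60 against 11.58, 11.89 and 11.69 at day 1, 11.05, 10.96 and 10.98 against 11.77, 11.50 and 11.62 at day 2, and 11.01, 10.88 and 11.31 against 11.83, 11.42 and 11.65 at day 4. It was 1.41-fold lower (−0.49 ± 0.07, adjusted p 0.000162), a call that the negative-control covariate moved just past the threshold, to 0.0579. At day 1 its highest HPNWT array lay inside the EGFP range, and at the later days no array did.

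Cyp2j5 makes epoxides of arachidonic acid. It read 10.52, 10.64 and 10.73 against 10.71, 10.83 and 10.77 at day 1, 10.52, 10.60 and 10.73 against 10.88, 10.80 and 10.76 at day 2, and 10.34, 10.35 and 10.29 against 10.72, 10.77 and 10.79 at day 4. Its mean difference was small and tight (−0.26 ± 0.04, 1.19-fold lower, adjusted p 0.000421), and the gap between the groups was widest at day 4. Cyp2f2, known for the activation of naphthalene, was among the brightest of the enzymes at 12.10, 12.12 and 12.20 against 12.14, 12.35 and 12.40 at day 1, 12.07, 11.99 and 12.09 against 12.36, 12.28 and 12.34 at day 2, and 12.12, 12.17 and 12.17 against 12.36, 12.35 and 12.30 at day 4. It was 1.15-fold lower (−0.20 ± 0.04, adjusted p 0.00163), and its call was lost with the covariate (0.159). Cyp2c38 was 1.47-fold lower (−0.55 ± 0.11, adjusted p 0.00309) and Cyp2d9, a male-predominant steroid hydroxylase, 1.19-fold lower (−0.25 ± 0.06, adjusted p 0.00813).

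The rises among the cytochromes P450 were slight. Cyp2d26 was 1.12-fold higher (0.16 ± 0.03, adjusted p 0.0038). Cyp2a22 was 1.14-fold higher (0.19 ± 0.05, adjusted p 0.0252), a call lost without HPNWT day 1 replicate 2 (0.0554), HPNWT day 2 replicate 2 (0.0552), EGFP day 2 replicate 2 (0.055) or, taken singly, HPNWT day 4 replicate 2 (0.0552). The other CYP2D genes, Cyp2d10 and Cyp2d22, were not called (−0.11 ± 0.04 and −0.13 ± 0.06). Por, the reductase that passes electrons to all microsomal cytochromes P450, was not called either, at −0.31 ± 0.11 with an adjusted p of 0.0794, and its call appeared when HPNWT day 4 replicate 3 was left out (−0.35, adjusted p 0.0485).

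Fmo1, a flavin monooxygenase that oxidises nitrogen and sulfur atoms of drugs, was 1 of 3 enzymes whose 9 HPNWT arrays all lay under all 9 EGFP arrays, together with Ugt2b1 and Ugt2b5. Such a separation was seen in 0.949% of all clusters, and the share among clusters above the negative-control level was not computed. Its signal was 8.89, 8.99 and 8.90 against 9.34, 9.49 and 9.53 at day 1, 8.79, 9.09 and 9.08 against 9.36, 9.61 and 9.51 at day 2, and 9.12, 9.07 and 8.73 against 9.41, 9.22 and 9.34 at day 4. The mean difference was −0.46 ± 0.06 (1.37-fold lower, adjusted p 9.39e-05). Fmo5 was not called (−0.16 ± 0.11, adjusted p 0.373), and Fmo2 averaged under the negative-control level.

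Carboxylesterases split ester and amide drugs as well as lipid esters, and the 4 of the Ces1 and Ces3 groups among the 49 enzymes were all lower. Ces1e had the smallest adjusted p of all 49 enzymes. It read 8.56, 8.49 and 8.58 against 8.71, 8.67 and 9.13 at day 1, 8.03, 8.005 and 8.20 against 8.64, 8.76 and 8.57 at day 2, and 7.97, 8.09 and 8.13 against 8.83, 8.76 and 8.82 at day 4. The mean difference was −0.54 ± 0.06 (1.45-fold lower, adjusted p 1.1e-05), and the groups were apart at days 1, 2 and 4. Ces1d, which also hydrolyses triglyceride in hepatocytes, read 9.10, 9.17 and 9.43 against 9.59, 9.67 and 9.85 at day 1, 8.79, 8.94 and 9.02 against 9.38, 9.30 and 9.37 at day 2, and 9.16, 9.08 and 9.03 against 9.57, 9.26 and 9.48 at day 4. It was 1.33-fold lower (−0.42 ± 0.06, adjusted p 0.000114), and its arrays did not overlap at any day. Ces3b read 10.82, 10.89 and 11.33 against 11.43, 11.43 and 11.65 at day 1, 10.98, 10.74 and 10.98 against 11.47, 11.58 and 11.48 at day 2, and 11.13, 11.13 and 10.99 against 11.59, 11.16 and 11.26 at day 4. It was 1.37-fold lower (−0.45 ± 0.07, adjusted p 0.000535), with no overlap at any day and the narrowest gap at day 4. Ces3a was 1.16-fold lower (−0.21 ± 0.05, adjusted p 0.00703). With the covariate the calls of Ces3b (0.122) and Ces3a (0.177) were lost.

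The UDP-glucuronosyltransferases link glucuronic acid to drugs, bilirubin, bile acids and steroids. All 6 measured Ugt genes fell. The 5 glucuronosyltransferases among them are neighbours in 1 cluster on chromosome 5 by the RefSeq gene order. Their sequences are alike, so probes of 1 gene may catch RNA of another, and the 5 are not independent readings. Ugt2b1 read 10.69, 11.03 and 11.11 against 11.12, 11.47 and 11.49 at day 1, 10.63, 10.75 and 10.99 against 11.61, 11.46 and 11.48 at day 2, and 10.70, 10.82 and 10.61 against 11.27, 11.24 and 11.45 at day 4. Its difference was −0.58 ± 0.07 (1.5-fold lower, adjusted p 3.81e-05). Ugt2b5 read 10.29, 10.59 and 10.91 against 11.04, 11.19 and 11.10 at day 1, 10.42, 10.39 and 10.56 against 11.24, 10.98 and 11.17 at day 2, and 10.65, 10.65 and 10.36 against 11.09, 10.97 and 11.24 at day 4. Its difference was −0.58 ± 0.07 (1.49-fold lower, adjusted p 5.89e-05), and for both genes the 9 HPNWT arrays lay under the 9 EGFP arrays.

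Ugt2b34 read 9.88, 10.18 and 10.27 against 10.47, 10.87 and 10.82 at day 1, 10.03, 9.99 and 10.28 against 10.83, 10.69 and 10.68 at day 2, and 10.44, 10.54 and 10.40 against 10.65, 10.60 and 10.80 at day 4. It was 1.4-fold lower (−0.49 ± 0.07, adjusted p 0.000114), and its day 4 values came closest to those of the EGFP arrays. Ugt2b36 was 1.27-fold lower (−0.34 ± 0.08, adjusted p 0.00743). Ugt2a3 was 1.23-fold lower (−0.29 ± 0.08, adjusted p 0.0246), and lost its call without HPNWT day 1 replicate 1 (0.0512), EGFP day 1 replicate 3 (0.0538), HPNWT day 2 replicate 1 (0.0528), HPNWT day 2 replicate 2 (0.0534), EGFP day 2 replicate 2 (0.0521) or, taken singly, EGFP day 4 replicate 1 (0.0544). Ugt3a1, which transfers N-acetylglucosamine, lies outside that cluster. It was 1.35-fold lower (−0.43 ± 0.12, adjusted p 0.0238), a call lost without HPNWT day 1 replicate 1 (0.0524), HPNWT day 1 replicate 2 (0.0515) or, taken singly, HPNWT day 2 replicate 1 (0.0511).

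Of the 6 glutathione transferases 1 was called. Gstt1, a theta-class enzyme that conjugates small halogenated compounds, rose. It read 9.76, 9.55 and 9.47 against 9.15, 9.24 and 9.38 at day 1, 9.68, 9.92 and 9.79 against 9.06, 9.10 and 9.21 at day 2, and 9.70, 9.79 and 10.03 against 9.41, 9.22 and 9.16 at day 4. All 9 HPNWT arrays lay above all 9 EGFP arrays, which was seen in 1.41% of all clusters, and the difference was 0.53 ± 0.06 (1.44-fold higher, adjusted p 1.73e-05). Its theta-class relative Gstt2 did not share the rise: its difference was −0.28 ± 0.12 (adjusted p 0.122), and without HPNWT day 4 replicate 3 it was called lower (−0.34, adjusted p 0.0456). The mu-class genes Gstm1, Gstm2 and Gstm3 and the pi-class Gstp1, which include some of the brightest signals of the set, differed by −0.05 ± 0.05, −0.02 ± 0.09, −0.04 ± 0.11 and −0.03 ± 0.04, and none was called.

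Sult1a1, the main sulfotransferase of small phenols in liver, was the other strong rise. It read 9.68, 9.47 and 9.43 against 9.26, 9.05 and 9.44 at day 1, 9.69, 9.92 and 9.86 against 9.19, 9.45 and 9.51 at day 2, and 9.99, 10.01 and 10.38 against 9.04, 9.59 and 8.79 at day 4. The mean difference was 0.57 ± 0.10 (1.48-fold higher, adjusted p 0.000724). The groups were apart at days 2 and 4, and at day 1 the top EGFP array lay between HPNWT arrays. Sult1e1, the estrogen sulfotransferase, was also called higher, yet its signal of 2.20 against 1.95 was far under the negative-control level, so its difference of 0.25 ± 0.05 (adjusted p 0.00154) is a difference in signal and no fold is given. Its 9 HPNWT arrays lay above its 9 EGFP arrays. Sult1d1, which sulfates catecholamines, was not called (0.19 ± 0.13) except without HPNWT day 4 replicate 3 (0.29, adjusted p 0.0486).

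Nat8, which acetylates cysteine conjugates on the way to mercapturates, was called lower in signal under the negative-control level (3.94 against 4.24, a difference of −0.29 ± 0.09, adjusted p 0.0289). Its call was lost without HPNWT day 1 replicate 2 (0.0641), EGFP day 1 replicate 1 (0.0563), EGFP day 1 replicate 3 (0.0635), HPNWT day 2 replicate 2 (0.0507), HPNWT day 2 replicate 3 (0.0504), EGFP day 2 replicate 1 (0.0549), EGFP day 2 replicate 2 (0.0515), HPNWT day 4 replicate 2 (0.0525), EGFP day 4 replicate 1 (0.0637) or, taken singly, EGFP day 4 replicate 3 (0.0589). Sult1b1 and the arylamine acetyltransferase Nat2 also lay under that level and were not called.

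**Figure D2:**
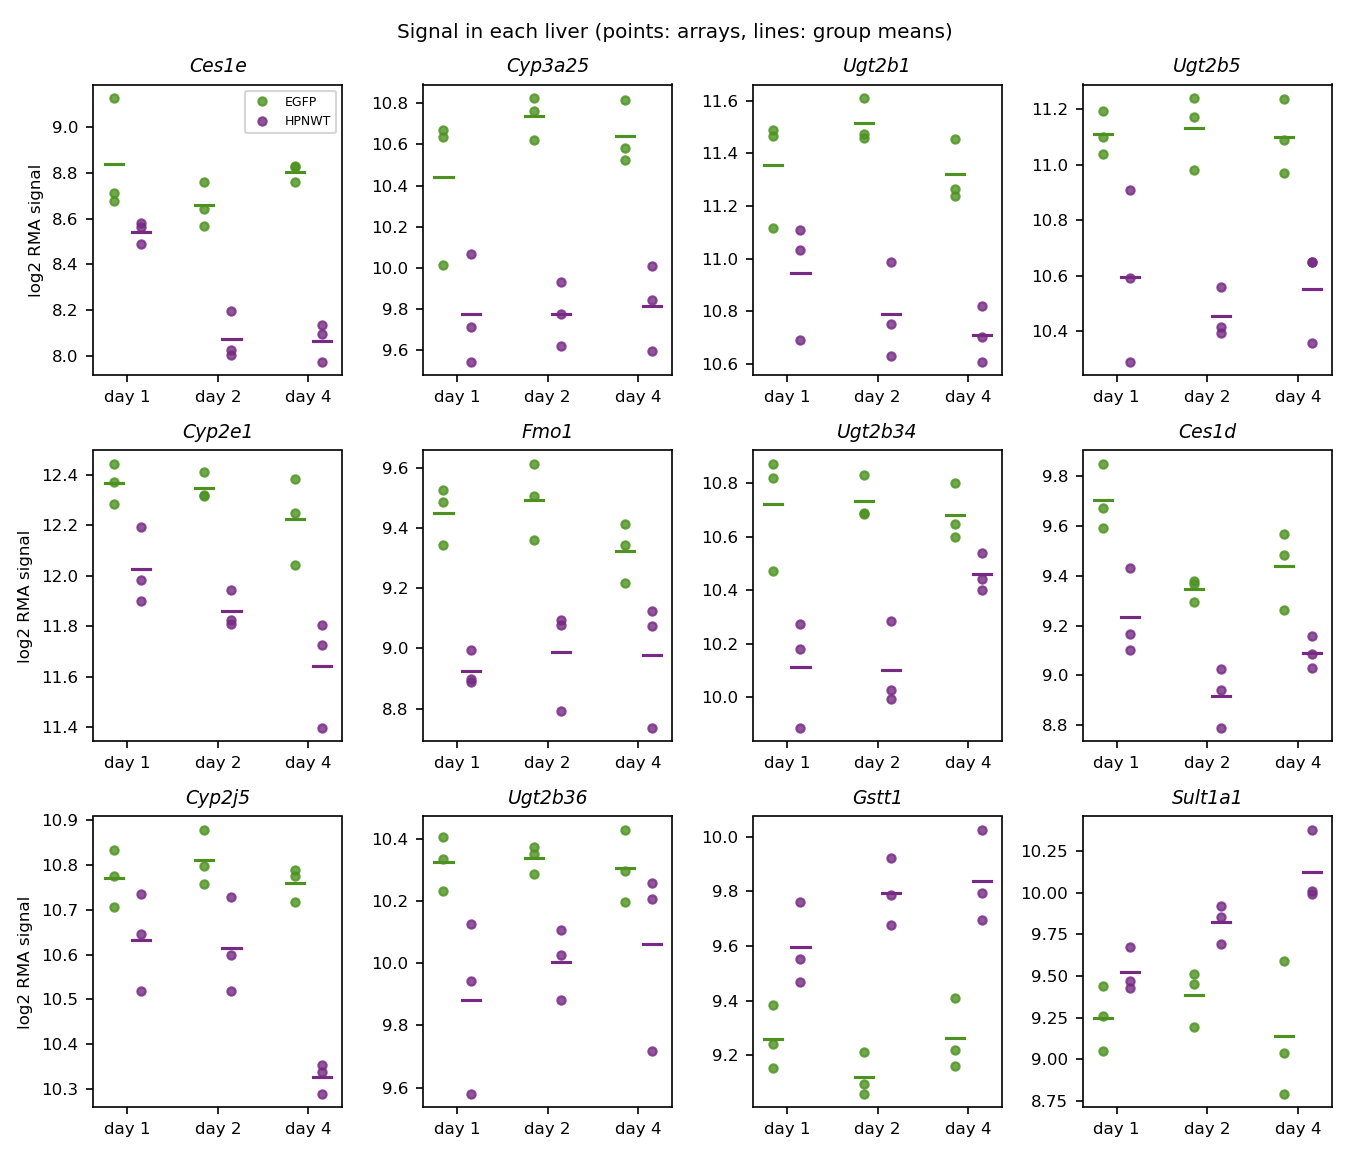
Log2 RMA signal of the 12 enzymes whose call over the 3 days held under every alternative run (y axes, each panel with its own range), for EGFP (green) and HPNWT (purple) livers by day; points are single arrays, 3 per group, and lines are group means. The HPNWT means lie under the EGFP means at each day for 10 genes, from Ces1e to Ugt2b36, and above them for Gstt1 and Sult1a1.

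Promoter sequence was set beside these 12 enzymes to show what letters lie ahead of genes that moved together. RefSeq (GRCm38.p6) gave a window for 41 of the 49 enzymes, and the 250 bases before the start of each were searched on both strands for AGGTCA (a nuclear receptor half-site), GTTAAT (a half-site of the hepatocyte factor HNF1), TTCNNNGAA (bound by STAT proteins), GCGTG (the core bound by the aryl hydrocarbon receptor) and TATAAA (the TATA box). The 41 windows are 1 per gene, the first listed, while the 32851 hold further windows of some genes. The shares therefore compare unlike units. Cyp3a25 has 2 windows, of which the first is used. AGGTCA stood in 10 of the 41 windows (24.4%) against 14.0% of all 32851 windows, and GTTAAT in 8 (19.5%) against 6.43%. TATAAA stood in 16 (39.0%) against 12.4%, GCGTG in 4 (9.76%) against 28.2%, and TTCNNNGAA in 0 (0.0%) against 7.02%. Of the 18 enzymes with a window that fell, 5 held AGGTCA and 3 held GTTAAT, and of the 5 that rose, 1 and 2 did. The windows of the 5 lasting calls with either half-site are shown, with the matches to any of the motifs in capitals. They lie at chr5:146009619-146009868, chr5:87140341-87140590, chr4:96664120-96664369, chr7:126676419-126676668 and chr5:87092556-87092805, all on the minus strand, and end at the base before the start.
Cyp3a25: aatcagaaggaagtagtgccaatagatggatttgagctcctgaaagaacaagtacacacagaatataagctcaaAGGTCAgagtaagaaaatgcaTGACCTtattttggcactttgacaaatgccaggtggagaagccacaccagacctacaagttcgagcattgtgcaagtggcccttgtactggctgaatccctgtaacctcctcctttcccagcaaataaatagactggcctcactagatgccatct
Ugt2b5: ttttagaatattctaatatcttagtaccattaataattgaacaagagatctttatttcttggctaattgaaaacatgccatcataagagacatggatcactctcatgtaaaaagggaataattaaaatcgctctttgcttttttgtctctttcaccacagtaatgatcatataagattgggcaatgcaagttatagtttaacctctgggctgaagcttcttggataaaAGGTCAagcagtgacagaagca
Cyp2j5: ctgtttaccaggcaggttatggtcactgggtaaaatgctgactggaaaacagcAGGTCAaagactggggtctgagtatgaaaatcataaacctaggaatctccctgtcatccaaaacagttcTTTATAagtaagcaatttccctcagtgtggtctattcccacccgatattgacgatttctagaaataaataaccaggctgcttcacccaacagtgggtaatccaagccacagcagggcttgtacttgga
Sult1a1: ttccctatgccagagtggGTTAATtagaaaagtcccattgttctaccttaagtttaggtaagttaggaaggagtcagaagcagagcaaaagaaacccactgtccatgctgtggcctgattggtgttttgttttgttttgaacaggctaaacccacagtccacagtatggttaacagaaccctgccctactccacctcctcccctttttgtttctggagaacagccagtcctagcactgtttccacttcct
Ugt2b36: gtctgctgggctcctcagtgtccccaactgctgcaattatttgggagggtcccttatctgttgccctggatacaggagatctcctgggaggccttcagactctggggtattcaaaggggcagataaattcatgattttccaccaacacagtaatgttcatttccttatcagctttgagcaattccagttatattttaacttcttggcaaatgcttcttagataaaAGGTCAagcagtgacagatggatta
Cyp3a25 holds AGGTCA 176 bases before its start and the same letters on the other strand, TGACCT, at 155 bases. Ugt2b5 and Ugt2b36 hold it at 22 and 25 bases, inside the longest run of letters that these 2 windows share, 24 bases. No other pair of the 5 windows shared a run of over 9 bases. Cyp2j5 holds it at 197 bases, beside a TATA-box match on the other strand at 128, and Sult1a1, which rose, holds GTTAAT at 232 bases. A match is a description of the letters only, and binding was not measured.

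At day 1, 6 of the 49 enzymes were lower (12.2%) and 0 higher, where the test called 1.62% of all clusters lower and 2.97% higher (4.59% in either direction). Kept to clusters above the negative-control level, it called 12 of the 43 enzymes there lower and 1 higher, against 7.89% and 12.3%. Without an adjustment, 22 had a p under 0.05. The 6 were Ugt2b34 (−0.61 ± 0.12, adjusted p 0.00645), Fmo1 (−0.52 ± 0.11, 0.00976), Ces1d (−0.47 ± 0.10, 0.0118), Cyp3a25 (−0.67 ± 0.17, 0.0303), Ugt2b5 (−0.51 ± 0.13, 0.0307) and Ces3b (−0.49 ± 0.13, 0.0398). The 3 HPNWT arrays lay under the 3 EGFP arrays for 18 enzymes, against 8.21% of all clusters, and above them for 3, against 10.0%. For such separations the share among clusters above the negative-control level was not computed at any day. As most of the enzymes lie above that level, all clusters are an unlike background here. Only Fmo1 and Ugt2b34 kept their day 1 calls with any array left out. Cyp3a25 lost its call (adjusted p in parentheses) without HPNWT day 1 replicate 1 (0.155), HPNWT day 1 replicate 2 (0.115), EGFP day 1 replicate 2 (0.149) or, taken singly, EGFP day 1 replicate 3 (0.13). Ces1d lost it without HPNWT day 1 replicate 1 (0.064), HPNWT day 1 replicate 2 (0.0619) or, taken singly, EGFP day 1 replicate 3 (0.0631). Ugt2b5 lost it without HPNWT day 1 replicate 1 (0.159), HPNWT day 1 replicate 2 (0.101), EGFP day 1 replicate 1 (0.0586), EGFP day 1 replicate 2 (0.124) or, taken singly, EGFP day 1 replicate 3 (0.0834). For Ces3b, the weakest of the 6, the call was lost without HPNWT day 1 replicate 1 (0.193), HPNWT day 1 replicate 2 (0.168), EGFP day 1 replicate 1 (0.0707), EGFP day 1 replicate 2 (0.0834), EGFP day 1 replicate 3 (0.157), EGFP day 2 replicate 1 (0.0532), EGFP day 2 replicate 2 (0.0517) or, taken singly, EGFP day 2 replicate 3 (0.0537). The number of calls at day 1 ran from 2 to 11 over the left-out arrays. It was 2 when HPNWT day 1 replicate 1, HPNWT day 1 replicate 2 or EGFP day 1 replicate 3 was left out, 3 without EGFP day 1 replicate 2, and 11 without HPNWT day 1 replicate 3 or HPNWT day 4 replicate 3.

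At day 2, 11 enzymes were lower (22.4%) and 1 higher (2.04%), against 3.51% and 2.16% of all clusters (5.67% in either direction). Among clusters above the negative-control level the counts were 14 and 2 of 43, against 13.4% and 6.4%. Without an adjustment, 24 had a p under 0.05. The rise was Gstt1 (0.67 ± 0.10, adjusted p 0.00128), and the largest fall was that of Cyp3a25 (−0.96 ± 0.17, 0.00356). Ugt2b1 (−0.73 ± 0.12, 0.00307), Ugt2b5 (−0.68 ± 0.13, 0.00687), Ugt2b34 (−0.63 ± 0.12, 0.00543), Cyp1a2 (−0.63 ± 0.12, 0.00734) and Ces1e (−0.58 ± 0.10, 0.00347) followed. These 7 kept their day 2 calls with any array left out. The other falls were those of Ces3b (−0.61 ± 0.13), Fmo1 (−0.50 ± 0.11), Cyp2e1 (−0.49 ± 0.11), Ces1d (−0.43 ± 0.10) and Cyp2f2 (−0.27 ± 0.07). Ces3b lost its call (adjusted p in parentheses) without HPNWT day 2 replicate 2 (0.0681) or, taken singly, EGFP day 2 replicate 2 (0.0612). Fmo1 lost it without HPNWT day 2 replicate 1 (0.0575) or, taken singly, EGFP day 2 replicate 2 (0.0721). Cyp2e1 lost it without HPNWT day 2 replicate 1 (0.0512), HPNWT day 2 replicate 2 (0.0676), EGFP day 2 replicate 2 (0.0514) or, taken singly, EGFP day 2 replicate 3 (0.0604). The call of Ces1d was lost without HPNWT day 2 replicate 1 (0.0869), HPNWT day 2 replicate 2 (0.061), EGFP day 2 replicate 1 (0.0571), EGFP day 2 replicate 2 (0.0556) or, taken singly, EGFP day 2 replicate 3 (0.063), and that of Cyp2f2 without HPNWT day 2 replicate 1 (0.0601), HPNWT day 2 replicate 2 (0.119), EGFP day 2 replicate 1 (0.0834), EGFP day 2 replicate 2 (0.062) or, taken singly, EGFP day 2 replicate 3 (0.0804). All 3 HPNWT arrays lay under the EGFP arrays for 25 enzymes, against 13.1% of all clusters, and above them for 5, against 21.2%. The count of 12 calls became 7 without EGFP day 2 replicate 2 and 19 without HPNWT day 4 replicate 3. When the negative-control median was fitted as a covariate, none of the 12 calls at day 2 remained, and Gstt1 came nearest with an adjusted p of 0.0505.

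At day 4, 9 enzymes were lower (18.4%) and 3 higher (6.12%), against 0.67% and 1.54% of all clusters (2.21% in either direction). Above the negative-control level 8 and 2 of 43 were called, against 2.82% and 3.76%. Without an adjustment, 25 had a p under 0.05. Sult1a1 had the largest rise, 0.99 ± 0.17 or 1.98-fold (adjusted p 0.00358), followed by Gstt1 (0.58 ± 0.10, 0.00535) and, under the negative-control level, Sult1e1 (0.34 ± 0.08, 0.0398). The falls with the smallest adjusted p were those of Ces1e (−0.74 ± 0.10, 0.000561), Cyp2j5 (−0.43 ± 0.07, 0.0027) and Cyp2e1 (−0.58 ± 0.11, 0.00647). Ces1e, Cyp2j5, Cyp2e1, Gstt1 and Sult1a1 kept their day 4 calls with any array left out. The further falls were those of Cyp3a25 (−0.82 ± 0.17), Cyp3a13 (−0.62 ± 0.14), Ugt2b1 (−0.61 ± 0.12), Cyp1a2 (−0.56 ± 0.12), Ugt2b5 (−0.55 ± 0.13) and, in signal under the negative-control level, Nat8 (−0.60 ± 0.15).

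The calls of these 6 and of Sult1e1 at day 4 were each lost in some fits with 1 array left out. Leaving an array out also lowers precision, so a lost call does not show that this array made the difference. Cyp3a25 and Ugt2b1 lost their calls without EGFP day 4 replicate 3 alone, at adjusted p of 0.0694 and 0.0712. Over all left-out arrays their day 4 differences stayed between −0.92 and −0.71 and between −0.66 and −0.54. Cyp3a13 lost its call without HPNWT day 4 replicate 1 (0.0761), HPNWT day 4 replicate 2 (0.0619), EGFP day 4 replicate 1 (0.0756) or, taken singly, EGFP day 4 replicate 2 (0.118). Cyp1a2 lost it without HPNWT day 4 replicate 1 (0.0627), HPNWT day 4 replicate 2 (0.108), EGFP day 4 replicate 1 (0.121) or, taken singly, EGFP day 4 replicate 3 (0.0759). Ugt2b5 lost it without HPNWT day 4 replicate 2 (0.0576), HPNWT day 4 replicate 3 (0.109), EGFP day 4 replicate 1 (0.103) or, taken singly, EGFP day 4 replicate 3 (0.147). The call of Sult1e1 was lost without HPNWT day 1 replicate 2 (0.0538), EGFP day 1 replicate 2 (0.0574), HPNWT day 2 replicate 1 (0.052), EGFP day 2 replicate 2 (0.0546), HPNWT day 4 replicate 1 (0.0761), HPNWT day 4 replicate 2 (0.147), EGFP day 4 replicate 1 (0.142), EGFP day 4 replicate 2 (0.0701) or, taken singly, EGFP day 4 replicate 3 (0.129). Nat8 lost its call without HPNWT day 1 replicate 1 (0.0554), EGFP day 1 replicate 1 (0.0555), HPNWT day 2 replicate 1 (0.0621), HPNWT day 2 replicate 2 (0.0651), HPNWT day 2 replicate 3 (0.0644), EGFP day 2 replicate 1 (0.0624), EGFP day 2 replicate 2 (0.065), EGFP day 2 replicate 3 (0.0616), HPNWT day 4 replicate 1 (0.0989), HPNWT day 4 replicate 2 (0.14), HPNWT day 4 replicate 3 (0.0645), EGFP day 4 replicate 1 (0.219) or, taken singly, EGFP day 4 replicate 3 (0.177). All 3 HPNWT arrays lay under the EGFP arrays for 18 enzymes, against 5.7% of all clusters, and above them for 6, against 9.91%. The 12 calls at day 4 became 7 when HPNWT day 4 replicate 2 or, instead, EGFP day 4 replicate 1 was left out, and 6 without EGFP day 4 replicate 3. In a fit on the 6 arrays of that day alone, Ces1e was the single call left.

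**Figure D3:**
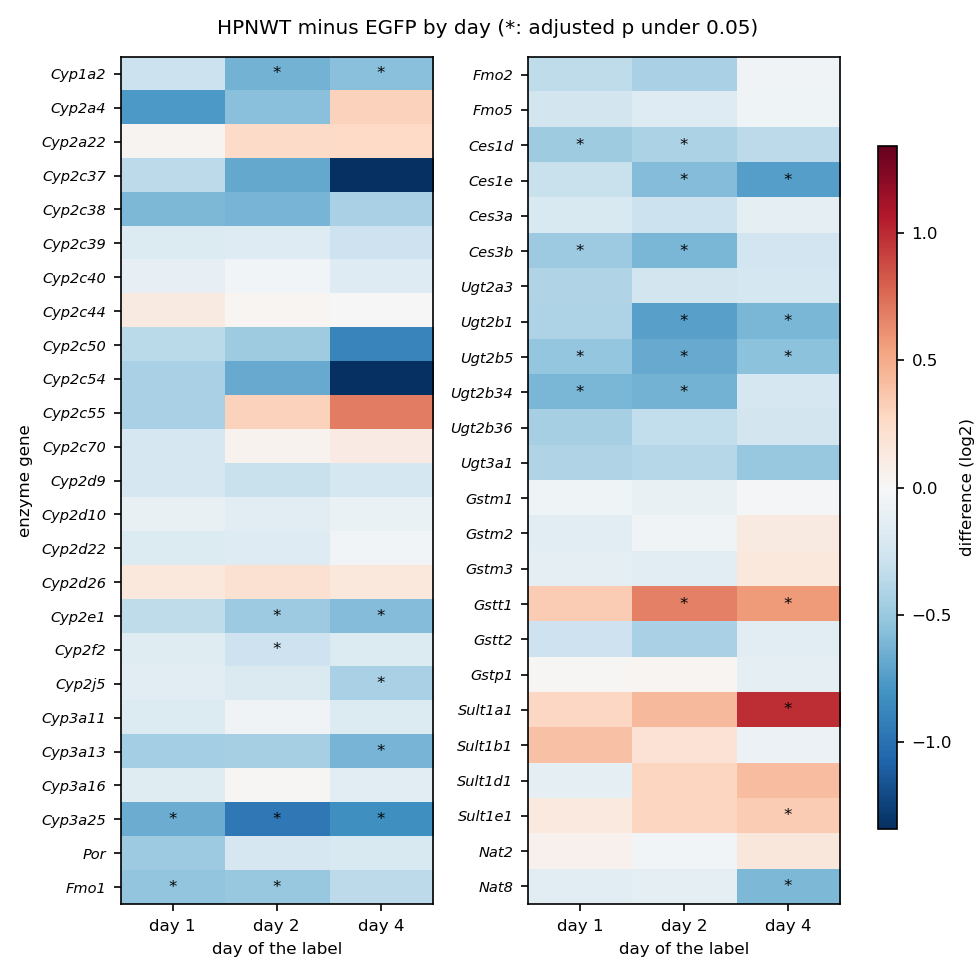
Difference between HPNWT and EGFP livers (colour, log2, blue lower and red higher in HPNWT) for the 49 enzymes in rows and day 1, day 2 and day 4 in columns; each cell is the difference of 3 against 3 arrays, and a star marks an adjusted p under 0.05. Cyp3a25 and Ugt2b5 carry a star at each day, Gstt1 at days 2 and 4, and Sult1a1 at day 4, while the unmarked dark cells of Cyp2c37 and Cyp2c54 at day 4 owe most of their size to 1 array.

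Whether the differences changed from day to day was tested as the difference of differences. No enzyme was called for day 2 against day 1, day 4 against day 1 or day 4 against day 2 in limma, where 0.0%, 0.0946% (0.0747% higher and 0.0199% lower) and 0.00498% of all clusters were called, and 2, 7 and 5 of the 49 had an unadjusted p under 0.05. The larger difference of Sult1a1 at day 4 than at day 1 (0.71, adjusted p 0.512), and that of Ces1e (−0.44, 0.47), were therefore not distinguished from the spread between arrays. Enzymes called at 1 day and not at another are not shown to differ between those days.

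Within the EGFP livers no enzyme changed over the 3 days (moderated F-test of limma, 0 of 49 and 0.0% of all clusters, with 3 enzymes at an unadjusted p under 0.05). Ces1d (F = 6.98) and Gstm3 (F = 5.39) had the largest F, both at an adjusted p of 0.9997. Gstm3, a mu-class glutathione transferase, read 10.11, 10.41 and 10.36 against 10.42, 10.42 and 10.42 at day 1, 10.39, 10.66 and 10.37 against 10.75, 10.44 and 10.64 at day 2, and 10.83, 11.14 and 11.58 against 10.53, 11.45 and 11.16 at day 4, and the groups overlapped at days 2 and 4 and were barely apart at day 1. Within the HPNWT livers 2 enzymes were called, against 0.64% of all clusters, and 17 had an unadjusted p under 0.05. Cyp2c55, a CYP2C enzyme known to respond to CAR and PXR activators, rose across the HPNWT days, with 5.60, 5.53 and 5.85 in HPNWT against 5.81, 6.18 and 6.29 in EGFP arrays at day 1, 6.30, 6.37 and 6.17 in HPNWT against 6.35, 5.88 and 5.69 in EGFP arrays at day 2 and 7.31, 7.10 and 7.34 in HPNWT against 6.46, 7.09 and 6.16 in EGFP arrays at day 4 (F = 32.1, adjusted p 0.0024). Its HPNWT values lay under the negative-control level of 6.16 at day 1 and above it at days 2 and 4. This call held with any array left out. Its difference from EGFP moved from −0.43 ± 0.20 at day 1 to 0.69 ± 0.20 at day 4, and neither was called (adjusted p 0.304 and 0.104). Ces1e fell across the HPNWT days (F = 14.7, adjusted p 0.0407), and its call was lost when any of 13 arrays was left out, at adjusted p between 0.0545 and 0.14, the exceptions being all 3 EGFP day 1 arrays, HPNWT day 2 replicate 3 and HPNWT day 4 replicate 3.

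A group of CYP2C genes had its largest differences at day 4, and these rested on 1 array. Cyp2c37, Cyp2c50 and Cyp2c54, neighbouring genes on chromosome 19 that make epoxides and hydroxy acids of arachidonic acid, were singled out after their values were seen. At day 4 Cyp2c37 read 9.91, 9.84 and 7.45 in HPNWT against 10.62, 10.12 and 10.48 in EGFP arrays, Cyp2c54 read 10.33, 10.15 and 7.69 in HPNWT against 10.996, 10.29 and 10.91 in EGFP arrays and Cyp2c50 read 10.80, 10.75 and 8.83 in HPNWT against 11.25, 10.65 and 11.13 in EGFP arrays. HPNWT day 4 replicate 3 was the lowest of all 18 arrays in each of the 3 genes, and the other HPNWT arrays of that day were close to each other. Their sequences are alike, so the 3 readings may share RNA.

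With that array the day 4 differences of Cyp2c37, Cyp2c54 and Cyp2c50 were −1.34 ± 0.43, −1.34 ± 0.45 and −0.88 ± 0.36, and without it they were −0.53, −0.49 and −0.23; none was called in either fit. Leaving it out made the differences over the 3 days smaller, yet it narrowed the spread so that their adjusted p fell. Cyp2c37 went from −0.79 (adjusted p 0.0394) to −0.52 (0.000587), Cyp2c54 from −0.81 (0.0465) to −0.53 (0.00188), and Cyp2c50 from −0.58 (0.0737, not called) to −0.36 (0.0145). With HPNWT day 4 replicate 3 kept in the fit, Cyp2c37 lost its call when any of 13 other arrays was left out (adjusted p in parentheses). At day 1 these were HPNWT replicates 1 (0.0752) and 2 (0.0602) and EGFP replicates 1 (0.0504), 2 (0.063) and 3 (0.0743). At day 2 they were HPNWT replicates 1 (0.0754), 2 (0.058) and 3 (0.0542) and EGFP replicates 1 (0.0581), 2 (0.0627) and 3 (0.0692). At day 4 they were EGFP replicates 1 (0.0741) and 3 (0.0649). Cyp2c54 lost its call without HPNWT day 1 replicate 1 (0.0858), HPNWT day 1 replicate 2 (0.0698), HPNWT day 1 replicate 3 (0.0506), EGFP day 1 replicate 1 (0.0598), EGFP day 1 replicate 2 (0.0737), EGFP day 1 replicate 3 (0.0835), HPNWT day 2 replicate 1 (0.0876), HPNWT day 2 replicate 2 (0.0668), HPNWT day 2 replicate 3 (0.0627), EGFP day 2 replicate 1 (0.0647), EGFP day 2 replicate 2 (0.0714), EGFP day 2 replicate 3 (0.0826), EGFP day 4 replicate 1 (0.0873) or, taken singly, EGFP day 4 replicate 3 (0.0801). In the day 1 and day 2 arrays alone all 3 genes were lower in HPNWT on average, by −0.35, −0.43 and −0.37 at day 1 and by −0.68, −0.67 and −0.48 at day 2.

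The same array was also the lowest of all 18 for Cyp2c39, Cyp2c40, Cyp2d9, Cyp2e1, Cyp2j5, Fmo1, Ugt2b1, Ugt3a1, Gstp1 and Sult1b1, and the highest for Cyp2a4, Cyp2c55, Gstm1, Gstm2, Gstm3, Gstt1, Sult1a1 and Nat2. Across the 3 HPNWT livers of day 4, markers of other cells also spread widely, with array means of the 5 endothelial markers from 7.39 to 8.02 and of the 5 stellate cell markers from 6.25 to 6.86, against 7.40 to 7.50 and 6.19 to 6.31 in EGFP livers of day 4. The part of these markers in the enzyme values was not tested. Cyp2a4, a steroid 15-alpha-hydroxylase of higher level in females, read 10.44, 10.70 and 11.68 in HPNWT against 10.53, 10.65 and 10.72 in EGFP arrays at day 4. No other array of the series was as high. The cluster shared by Cyp2a5 and Cyp2a4 moved with it and read 10.62, 10.87 and 11.55 in the same HPNWT arrays. The 2 clusters are therefore not independent readings, and the signal may hold RNA of Cyp2a5, which was not tested. Over the 3 days Cyp2a4 was not called (−0.34 ± 0.14, adjusted p 0.115), and without the array it was called lower (−0.46, adjusted p 0.00242). Cyp2c70, which makes muricholic bile acids in mice, and Cyp2c44 and Cyp2c40 were not called with or without it. Without it, 26 enzymes were lower and 6 higher over the 3 days, the additions being Cyp2a4, Cyp2c50, Gstt2 and Por as falls and Sult1d1 as a rise. The share of all clusters called without this array is not given here. The added calls are therefore not shown to be particular to the enzymes.

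**Figure D4:**
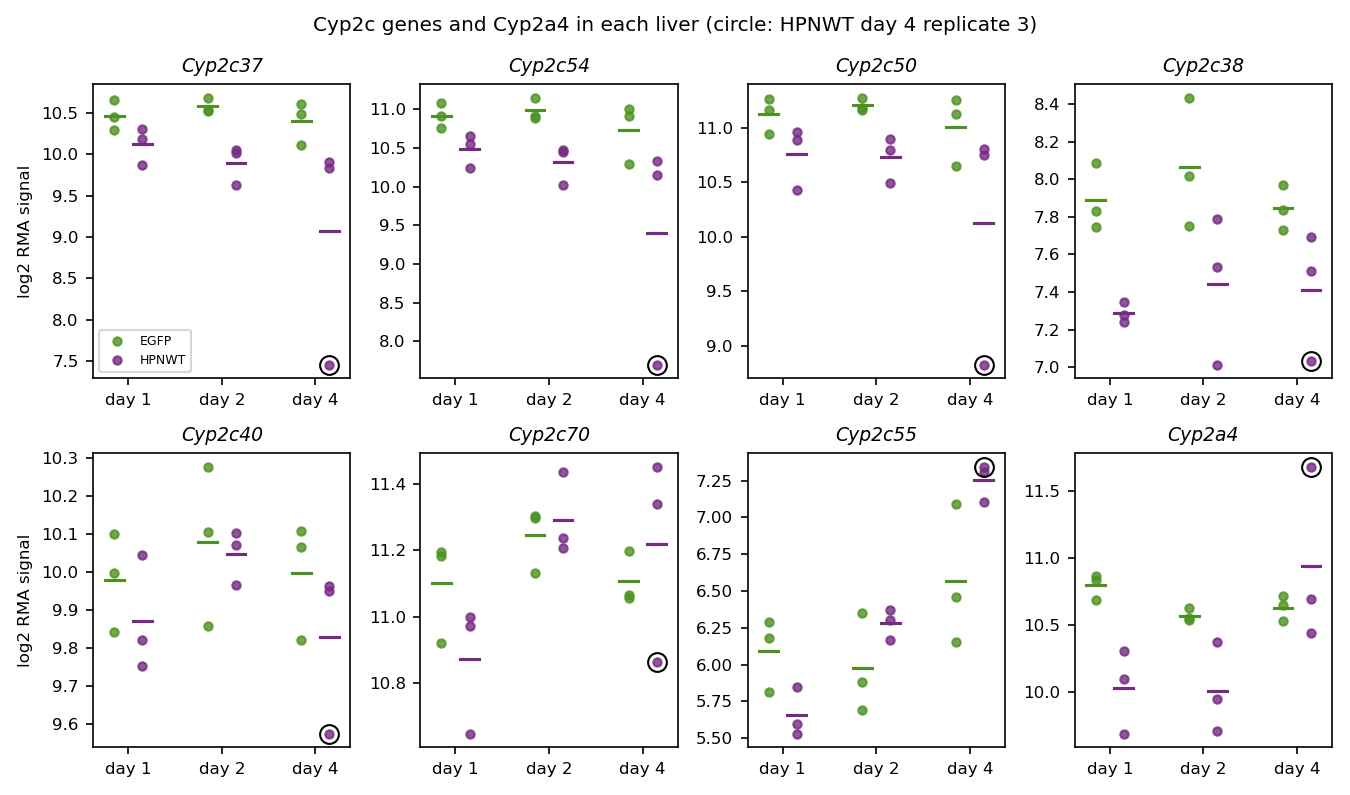
Log2 RMA signal of 7 Cyp2c genes and Cyp2a4 in each array by day (y axes, each panel with its own range; EGFP green, HPNWT purple; lines are group means), with HPNWT day 4 replicate 3 circled. The circled array lies far under the others for Cyp2c37, Cyp2c54 and Cyp2c50 and above them for Cyp2a4, and Cyp2c55 is higher at day 4 than at day 1 in all HPNWT arrays.

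The 3 enzymes without a cluster of their own were read on shared clusters, which cannot be assigned to 1 gene. The cluster of Cyp2a5, the mouse coumarin hydroxylase, with Cyp2a4 was lower at day 1 (−0.86 ± 0.19, adjusted p 0.0163) and day 2 (−0.71 ± 0.19, 0.0406) and not at day 4 (0.04 ± 0.19, 0.969), where HPNWT day 4 replicate 3 was again the highest array. The cluster over the Ugt1a genes, which include the bilirubin-conjugating Ugt1a1, was lower at day 1 (−0.29 ± 0.07, 0.025) and day 2 (−0.32 ± 0.07, 0.0133), with −0.13 ± 0.07 at day 4 (0.482). The cluster of Cyp2c29 with the pseudogene Cyp2c53-ps was not called at any day (−0.17 ± 0.13, −0.12 ± 0.13 and −0.35 ± 0.13). These clusters were not counted among the 49.

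The authors' deposited table gives their own comparison of each day. Its log2 differences were larger than those of the RMA values for some enzymes, such as Cyp3a25 (−1.68, −1.72 and −1.34 in the authors' deposited table), and smaller for others, such as Cyp2e1 at day 4 (−0.50 there). At a false discovery rate under 0.05 the authors' deposited table has, at day 1, 7 of the 49 enzymes lower and 1 higher (2.05% and 2.29% of all clusters). Day 2 has 9 lower and 3 higher (4.24% and 1.83%), and day 4 has 7 lower and 3 higher (0.617% and 1.01%) in the authors' deposited table. Its signed fold changes on the 3 days in turn, negative where the EGFP livers were higher, were −3.21, −3.29 and −2.53 for Cyp3a25 and −1.51, −1.99 and −2.85 for Ces1e in the authors' deposited table. The same table has 1.23, 1.73 and 4.20 for Sult1a1 and 1.58, 2.94 and 2.47 for Gstt1. In the authors' deposited table Ugt2b1 has −1.58, −2.31 and −2.05 and Cyp2e1 −1.22, −1.40 and −1.41.

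Of 20 receptors and partners that govern these enzymes, 4 were lower over the 3 days and 0 higher, with a median difference of −0.10. The share of falls was near the 20.7% of clusters above the negative-control level that were called lower, where 19.7% were called higher. The same shares, and the 7.33% lower and 7.85% higher of all clusters, are the background of each list that follows. Nr1i3, which encodes CAR, was lower by 1.49-fold (8.14 against 8.71, −0.58 ± 0.13, adjusted p 0.00519), and Nr1i2, which encodes PXR, by 1.31-fold (8.01 against 8.39, −0.38 ± 0.09, adjusted p 0.00744). Both kept their calls with any array left out, and Nr1i2 lost its call with the negative-control covariate (0.439). The calls of the coactivator Ncoa1 (−0.17 ± 0.05) and of Stat5b (−0.26 ± 0.08) were lost when any of 10 and 9 arrays, respectively, was left out, at adjusted p up to 0.0608 and 0.0677. Of 14 measured targets of CAR and PXR, 7 of them among the 49 enzymes, 2 rose and 4 fell. Outside the 49 were 1 of the 2 rises and all 4 falls, so none of the 7 targets among the 49 was called lower. The falls were those of Slco1a4 (−1.06 ± 0.16), Abcc3 (−0.46 ± 0.10), Ces2a (−0.36 ± 0.07) and Abcc2 (−0.29 ± 0.06). Of 7 measured targets of the aryl hydrocarbon receptor, Cyp1a2 alone was called. The other 6 averaged under the negative-control level, so the lack of a call says little about them. Cyp1a1, the usual marker of that receptor, stood under the negative-control level in both groups (3.65 against 3.66).

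Of 16 drug transporters measured, 10 were lower over the 3 days, 0 were higher and the other 6 were not called, against 20.7% lower and 19.7% higher among the brighter clusters and 7.33% and 7.85% among all. Their median difference was −0.29. The lists overlap, and Slco1a4 is counted both here and among the targets of CAR and PXR. The uptake carriers Slco1b2 (−0.92 ± 0.11, 1.9-fold lower, adjusted p 1.8e-05) and Slco2b1 (−0.51 ± 0.07) were among them, and Slco1b2 was lower in all 9 HPNWT arrays than in any EGFP array. Of 15 genes of electron transfer and heme supply, a list without Por, 2 rose (Cyb5r3, 0.22 ± 0.06, and Alad, 0.19 ± 0.05) and 0 were called lower, and both calls were lost when any of 7 and 3 arrays, respectively, was left out.

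The remaining enzymes of drug metabolism held both rises and falls. Of 44 further phase I enzymes, 11 of them under the negative-control level, 6 rose and 12 fell. Of 36 further phase II enzymes, 9 of them under that level, 6 rose and 16 fell, a share of falls near the 44.9% of the 49 enzymes. In both lists the share of falls was above the 20.7% of the brighter clusters and the 7.33% of all clusters. The share of rises lay between the 7.85% of all clusters and the 19.7% of the brighter ones. The carboxylesterases Ces2g (0.81 ± 0.07) and Ces2e (0.61 ± 0.06) rose, while Ces2a and the 4 measured Ces1 and Ces3 genes fell. Dpyd, which degrades pyrimidines and fluorouracil, fell by 1.77-fold (−0.82 ± 0.07), and Ephx2, the soluble epoxide hydrolase, by 1.34-fold (−0.43 ± 0.05). Among the conjugating enzymes Mgst1 (−0.45 ± 0.05) and Inmt (−1.07 ± 0.14) fell. In the Cyp2b and Cyp4a groups 4 genes rose and 4 fell, with Cyp2b9 at 3.52 ± 0.21 and Cyp4a12b at −1.70 ± 0.20 over the 3 days, larger than any such difference among the 49.

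Liver zone and sex genes were counted beside the enzymes because several of the enzymes are zonal or sex-biased. Of 14 pericentral genes 8 fell and 0 rose, against 7.33% and 7.85% of all clusters and 20.7% and 19.7% of the brighter ones. Of these 14, 7 are among the 49 enzymes, and of the other 7 genes 4 fell, with Oat at −1.69 ± 0.10 and Slc1a2 at −1.42 ± 0.11. Of 10 periportal genes, 1 of them among the 49, 4 fell and 2 rose. Of 13 male-biased genes, 8 fell and 1 rose. They include Cyp2d9 and Gstp1, and also Cyp4a12a and Cyp4a12b, which are counted above in the Cyp4a group. Of 12 female-biased genes, 2 rose, both outside the 49, and 0 fell. They include Cyp2a4, Cyp2c40 and Cyp3a16, and also Cyp2b9 and Cyp2b13, which are counted above in the Cyp2b group. However, 8 of the 12 female-biased genes averaged under the negative-control level, against 1 of the 13 male-biased genes. The 2 lists therefore differ in how well a fall can be seen. The clusters of Cyp2a4 and Cyp3a16 may also catch RNA of related genes, which was not tested. Among markers of other cells, Vsig4 of Kupffer cells was lower (−0.47 ± 0.12) and Sox9 of cholangiocytes higher (0.68 ± 0.13). In all, 2 of 6 Kupffer markers fell, with array means of 6.69 to 7.24 in HPNWT against 6.82 to 7.39 in EGFP arrays. Of 5 cholangiocyte markers 2 rose, with array means of 5.37 to 5.92 against 5.17 to 5.60. These cholangiocyte means lay under the negative-control level of 6.16, as did 3 of the 5 markers. Of 4 monocyte markers, all under that level, 1 rose, and of 5 stellate cell markers 1 rose and 1 fell. Of 2 red cell precursor markers 1 fell, and none of the 5 endothelial markers was called. The defining markers of neutrophils and of T and B cells (4 and 6 genes) were all under the negative-control level and none was called. Of the 5 hepatocyte markers, Apoa1 (0.29 ± 0.04) and Ttr (0.14 ± 0.03) rose and none fell. What part these markers have in the differences of the enzymes was not tested.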

How the data were processed

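RNA of 18 livers was measured on Affymetrix Mouse Transcriptome Array 1.0, 1 array per animal, per the labels' protocols. The deposited value table holds log2 signals after robust multi-array averaging (RMA). Per the submitters' processing notes the authors worked in the Transcriptome Analysis Console, whose version the sources used here do not give. The authors' deposited comparison tables, which also gave the gene symbols, hold group averages on a log2 scale, a signed fold change (a score, negative where the control was higher), the p-value of each cluster and its false discovery rate, per the file headers. Neither their settings nor a genome build is named in the sources used here.

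A limma model (3.58.1, in R 4.3.3) took 6 group means over all 18 arrays for each of the 40161 clusters that carry a symbol, without further scaling, filter or covariate. Contrasts were HPNWT minus EGFP at each day, their mean over the 3 days, their differences between days, and F-tests across days within each label. Tests were 2-sided, with Benjamini-Hochberg adjustment over all clusters and a threshold of 0.05. Errors are standard errors of the fit. An exact permutation test of 3 against 3 arrays cannot go below p = 0.1, and the number of arrays limits the precision. Alternatives were a replicate block, quantile normalization, median centring, all clusters, a low-value filter, the mean of a symbol's clusters, array weights, the negative-control median as covariate, the arrays of 1 day, and each array left out. On simulated arrays of the day 1 comparison, with 200 changed among 40161 clusters, 59.7% of changes of 0.5 and 94.0% of changes of 1 log2 unit were called.

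The members and all gene lists were chosen with earlier results of these data known. By rule, values in every array were given for the 16 called members with the smallest adjusted p at any day or over the 3 days and for the 2 with the largest F of each course, and up to 4 genes of each other list were named by smallest p. Other genes named were chosen after their values were seen, and some genes that the rule names are not reported here. Whether replicate numbers pair the arrays was checked: correlations of deviations between arrays of equal number lay between −0.25 and 0.111, so they did not. The promoter windows are from RefSeq, GRCm38.p6. The authors' lists of selected genes were not used.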

Additional observations from a re-analysis of the deposited data

How the results depend on the processing

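No call of an enzyme changed direction under any alternative run. Numbers of called enzymes that moved by over 1.5 times are given here. The shares of all clusters called in the same fits are not given beside them. A changed number therefore describes the setting and is not shown to be particular to the enzymes. At day 1, where 6 were called, the filter on low values gave 13, array quality weights 22 and the 6 arrays of that day 3, and leaving out single arrays gave 2 to 11. At day 2, where 12 were called, weights gave 25, the 6 arrays of that day 19 and the negative-control covariate 0, and single arrays left out gave 7 to 19. At day 4, where 12 were called, the 6 arrays of that day gave 1 and single arrays left out 6 to 12. Over the 3 days, where 27 were called, the covariate gave 12 and single arrays left out gave 22 to 32. The difference of day 4 against day 1 had 0 calls and 4 with weights. The EGFP course had 0 calls and 1 with weights, and 0 with any array left out. The 3 differences between days had 0 calls with any array left out. The HPNWT course had 2 calls, 7 with weights, 1 with median centring, 1 with all transcript clusters, and 1 to 3 with single arrays left out. Fits with the replicate number as a block had 27 calls over the 3 days and 1 in the HPNWT course, and the numbers were not shown to pair the arrays. The covariate ended more of the 59 single calls described (33) than any other alternative, followed by the fit on the arrays of 1 day (16 of the 30 calls it could test). The negative-control median also separates the labels at day 2, so its share and that of the label cannot be told apart there. In simulated arrays of the day 1 comparison 59.7% of changes of 0.5 log2 units were called, so changes of this size can be missed at 1 day.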
